A study of Oryctolagus cuniculus with 12 samples.

Results

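Of 29076 gene rows measured in rabbit cornea, 6 are described here: 3 copies without a gene symbol of their own, and the 3 named genes whose products those copies are annotated to resemble. The pairs are LOC100344965 with ATP5J, LOC100344261 with AHCY and LOC100339782 with KMT2A. "Parent" is used below only for the named gene of a pair. The copies were chosen by their measured differences between light and control libraries of this same series, and the parents by having the same product name. Values of the 6 genes in a light group minus control are therefore given as a description, with no test, and nothing is supported with them.

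The libraries came from the cornea of rabbits aged 6 months on a normal diet, 3 libraries in each of 4 groups named control, blue_light, GL and RL. An exposure of 6 weeks is written for all 12 libraries, the controls among them, so what light the control rabbits received cannot be read from the labels. Neither the wavelengths nor what GL and RL abbreviate, nor the strain of the rabbits, is given there. Nothing states that the 3 libraries of a group came from separate animals, so p-values speak only to variation among these libraries, and that variation may be technical.

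ATP5J encodes coupling factor 6, a small subunit of the peripheral stalk that holds the catalytic head of mitochondrial ATP synthase in place while the rotor turns. AHCY encodes adenosylhomocysteinase, which splits S-adenosylhomocysteine, the product left by every methylation reaction that uses S-adenosylmethionine, so that methyltransferases are not inhibited by it. KMT2A encodes a histone methyltransferase that marks lysine 4 of histone H3 at promoters, HOX genes among them. Extra copies of abundant genes are common in mammalian genomes. A copy made from reverse-transcribed mRNA lacks introns and lands away from its parent, whereas a segmental duplicate keeps its introns and often its neighbours.

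Library totals ran from 40.92 to 64.74 M (mega) counts, and 18171 rows passed the filter on low counts. All 6 genes passed it, LOC100339782 only through its light libraries. A row is said to be called in a comparison where edgeR's quasi-likelihood test gave a Benjamini-Hochberg adjusted p below 0.05 over all tested rows. The markers listed for corneal epithelium (6 of 6) and for keratocytes (5 of 5) were present in every group. Epithelial sums were 22600 to 31300 CPM (counts scaled to a common library total) in control and 22700 to 29500 in blue_light. They were 35100 to 36600 in GL and 27300 to 41200 in RL. Keratocyte sums were 34100 to 41200, 35600 to 46400, 44000 to 45800 and 33100 to 49800 CPM in the same order. GL thus lay above control without overlap for both lists. Rod photoreceptor markers summed to more than 100 CPM in blue_light 1, control 2 and GL 3 (123.1 to 615.0) and to 10.06 to 38.29 CPM in the 9 others. Rare transcripts split the libraries differently: all blue_light libraries, control 1 and RL 1 held 2389 to 2563 genes at 1 to 20 counts, the 7 others 767 to 1461. Neither set coincides with a group, although the second holds every blue_light library, and values without the first set and with the second as a covariate are given beside the results for LOC100344965 and LOC100344261. In whole cornea, fewer cells of a type and less RNA per cell cannot be told apart.

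**Figure D1:**
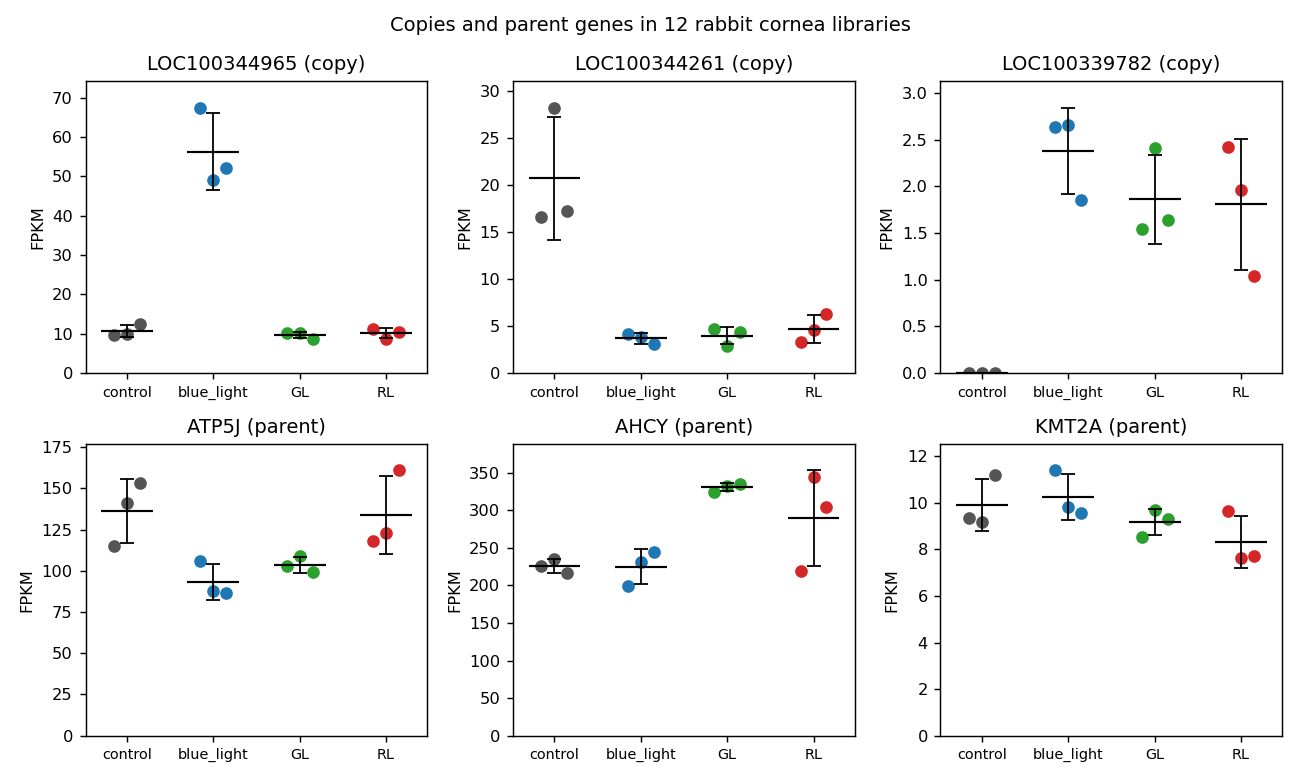
FPKM (fragments per kilobase of gene scaled to library depth, vertical axes from 0) of each copy (upper row) and its parent (lower row) in the 12 libraries, by group. Points are libraries, horizontal lines group means and bars SDs (n = 3); LOC100344965 is high in blue_light only, LOC100344261 is high in control only, LOC100339782 is at 0 in control only, and KMT2A overlaps in all 4 groups.

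The coupling factor 6 copy LOC100344965 lies on chromosome 1 at 181107705 to 181108170, plus strand, in the coordinates of the deposited table. Its 466 bp span equals the 466 bp gene length implied by its counts and FPKM. The scale of implied lengths was set by taking single-transcript rows at the commonest ratio of span to length as rows without introns. On that scale the copy has no room for an intron. ATP5J lies on chromosome 14 at 154862457 to 154874150, minus strand, and spans 11694 bp for an implied length of 654 bp over 2 transcripts. Spans within 5% of the implied length were found for 1198 of 8018 single-transcript rows with enough counts to compute it (14.9%).

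LOC100344965 was high in the blue_light libraries alone. Its level was 67.5, 49.1 and 52.2 FPKM in blue_light, 9.71, 9.84 and 12.5 in control, 10.2, 10.1 and 8.71 in GL, and 11.3, 8.72 and 10.5 in RL. Every blue_light library stood above every other library, and the other 3 groups overlapped. Group means were 10.7 ± 1.57 FPKM in the controls, 56.3 ± 9.85 with blue_light, 9.64 ± 0.814 with GL and 10.2 ± 1.33 with RL (SD, n = 3 each). Against control, the log2 difference was 2.39 ± 0.23 (SE) in blue_light, −0.10 ± 0.22 in GL and −0.01 ± 0.22 in RL. The order of levels was thus blue_light first, with control, RL and GL closer together than their spreads.

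ATP5J itself stood at 106, 87.8 and 86.3 FPKM in blue_light, 115, 141 and 153 in control, 103, 109 and 99.2 in GL, and 118, 123 and 161 in RL. The blue_light and GL libraries all lay below the lowest control, and those of RL overlapped the controls. The log2 difference from control was −0.55 ± 0.17 (SE) in blue_light, −0.35 ± 0.17 in GL and 0.04 ± 0.17 in RL. The copy and its parent therefore differed from control in opposite directions in blue_light. In CPM, where counts can be added, the copy stood 21.5 ± 2.36 higher (SE) and ATP5J differed by −28.9 ± 8.56.

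In GL, the values were −0.331 ± 0.465 CPM for the copy and −19.4 ± 8.09 for ATP5J, so ATP5J was lower there while its copy was level with control. The blue_light excess of the copy amounted to 23.6% of the mean control level of ATP5J in CPM, set against an SD of ATP5J among controls of 15% of that mean. The sources used here do not say how reads that match both genes were assigned, and the part of such reads in these values was not tested.

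As a share of copy plus parent FPKM, LOC100344965 took 7.29 ± 0.661% in the controls, 37.5 ± 1.52% with blue_light, 8.5 ± 0.464% with GL and 7.16 ± 1.41% with RL (SD, n = 3 each). In single libraries the share was 35.9% to 38.9% in blue_light and at most 8.99% elsewhere. Shares were compared among the 9 light libraries, without the controls, by an exact two-sided permutation test of the sum of squares between groups over 1680 labelled partitions (smallest possible p 0.00357). The exact permutation p was 0.0107, or 0.0321 adjusted over the 3 pairs. Blue_light libraries also entered the choice of this copy, so the test is not independent of that choice and nothing is supported with it. All blue_light shares lay above all GL and RL shares. The exact size of p therefore reflects how GL and RL libraries fell and how many libraries were left. The adjusted exact permutation p was 0.0857 without blue_light 1 and GL 3, the light libraries high in rod markers, and 0.0536 without RL 2 or without RL 3.

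**Figure D2:**
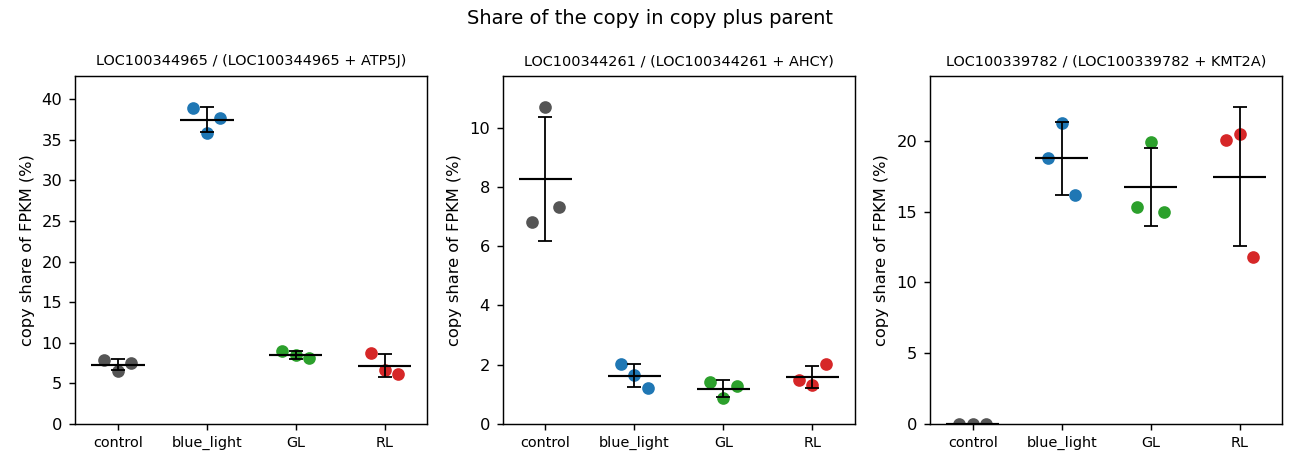
Share of each copy in the summed FPKM of copy and parent (percent, vertical axes from 0), per library and group. Points are libraries, lines means and bars SDs (n = 3); the share of LOC100344965 averages 37.5% in blue_light and 7.16% to 8.5% elsewhere, that of LOC100344261 8.29% in control and 1.18% to 1.63% elsewhere, and that of LOC100339782 is 0 in control and 16.8% to 18.8% elsewhere.

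Between light groups, edgeR placed LOC100344965 higher in blue_light than in GL by log2 2.48 (95% confidence interval 2.03 to 2.94, adjusted p = 0.00107) and higher than in RL by 2.39 (1.94 to 2.85, adjusted p = 0.00158). It was the only one of the 6 genes called in these comparisons, in which 0.0495% and 0.011% of the 18171 tested rows were called. GL and RL did not differ detectably for this copy (log2 −0.09, interval −0.53 to 0.35, adjusted p = 0.939 by edgeR), and none of the 6 genes was among the 0.0715% called there. As with the shares, the blue_light libraries tested here had helped to choose the copy, so these calls are not independent of that choice and nothing is supported with them. Without the 3 libraries high in rod markers the values were log2 2.29 for blue_light minus GL (edgeR adjusted p = 0.169) and 2.26 for blue_light minus RL (0.0768).

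The set rich in rare transcripts holds all blue_light libraries. Control 1 and RL 1 belong to it too and held LOC100344965 at 9.71 and 11.3 FPKM, beside 9.84 and 12.5 in the other controls and 8.72 and 10.5 in the other RL libraries. With the set as a covariate, blue_light minus GL was log2 2.51 (edgeR adjusted p = 0.117) and blue_light minus RL was log2 2.41 (edgeR adjusted p = 0.0285). Blue_light minus control was 2.40 for LOC100344965 and −0.30 for ATP5J with this covariate, and 2.22 and −0.60 without the libraries high in rod markers. For ATP5J, the same 3 comparisons gave log2 −0.21 (blue_light minus GL, adjusted p = 0.594), −0.60 (blue_light minus RL, 0.829) and −0.39 (GL minus RL, 0.581) by edgeR, none past the threshold.

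The table lists 7 rows with the coupling factor 6 product, 5 of which had any count and 2 of which were 0 throughout. LOC100344154 (chromosome 10, 12911713 to 12912190, span 478 bp) stood at 56.3, 12.4 and 41.1 FPKM in the GL libraries and at 10.6 to 22.0 in the 9 others. GL 1 and GL 3 were high for this copy and GL 2 was not, and its log2 difference from control in GL, 1.24 ± 0.43 (SE), missed the edgeR threshold (adjusted p = 0.565). LOC100339009 (chromosome 14, 162632238 to 162632779, span 542 bp) ranged from 4.01 to 11 CPM over all libraries with no call in any comparison (lowest edgeR adjusted p = 0.61).

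Summed over the family, the libraries were closer together than for ATP5J alone or for its copies alone. The SD over 12 libraries was 12.4% of the mean for the 7 rows together (94.0 to 136.0 CPM), 21.3% for ATP5J alone (58.0 to 113.0) and 35.4% for the copies without ATP5J (16.8 to 47.9). By group, the family sum was 113 ± 16.3 CPM in control, 104 ± 10.9 in blue_light and 115 ± 18.3 in RL (SD, n = 3 each), and ran from 94.0 to 108 over the 3 GL libraries. The 4 groups overlapped in this sum. Blue_light and control overlapped neither for LOC100344965 nor for ATP5J. LOC100344965 was chosen for its difference between blue_light and control, which adds to the spread of the copies. Nothing is therefore read from the smaller spread of the sum, and the part of read assignment in it was not tested. As a share of the whole family FPKM, LOC100344965 took 30.0% to 32.8% in blue_light and 5.13% to 7.0% in the other libraries.

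**Figure D3:**
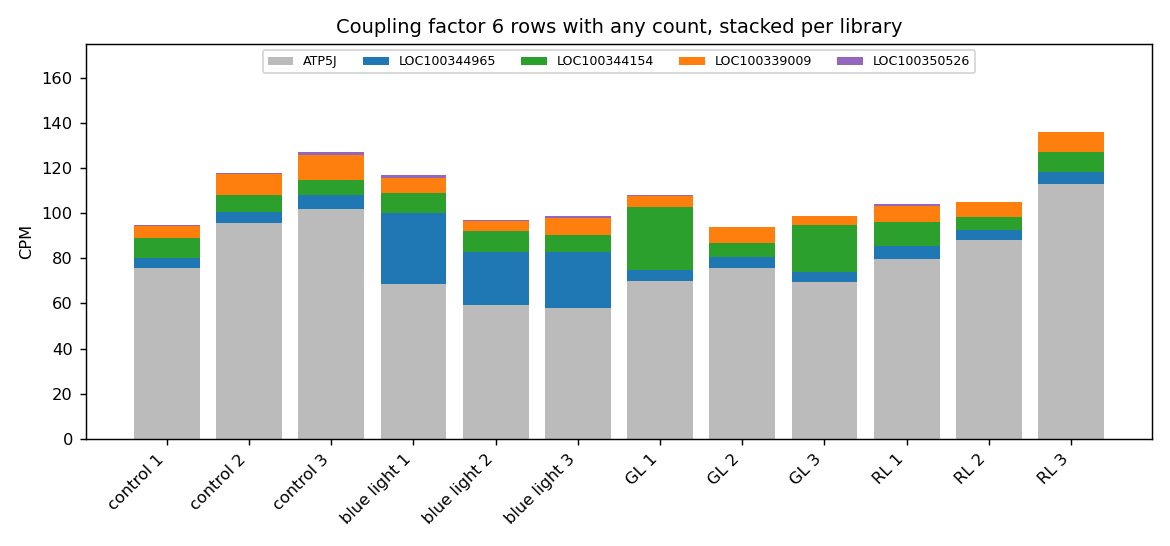
CPM of the 5 coupling factor 6 rows with any count, stacked per library (vertical axis from 0). The LOC100344965 segment is 23.6 to 31.2 CPM in the blue_light libraries and at most 5.91 elsewhere, the LOC100344154 segment is 27.9 and 21.0 in GL 1 and GL 3, and the whole bars run from 94.0 to 136.0 CPM.

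The other ATP synthase genes gave no calls. Of 19 tested genes of the complex and its assembly (ATP5J among them), edgeR called 0 in each of the 6 comparisons. At an unadjusted p below 0.05 there were 3, 1, 0, 4, 3 and 1, in the order blue_light, GL and RL minus control, blue_light minus GL, blue_light minus RL and GL minus RL. Over all 18171 tested rows the shares below that p were 3.26%, 8.1%, 4.74%, 14.9%, 5.14% and 8.6% in this order. DESeq2 called 1 gene in 1 comparison, USMG5 higher in blue_light than in GL, and limma called 0. The median log2 difference of the list was −0.05, −0.05 and 0.07 for blue_light, GL and RL minus control, beside 0.01, −0.02 and 0.00 over all tested genes. USMG5, a small membrane-sector subunit, averaged 86.7 ± 12.8 CPM in the controls, 119 ± 32.8 with blue_light, 71.5 ± 2.96 with GL and 88.9 ± 5.46 with RL (blue_light minus GL log2 0.73 ± 0.20 SE, edgeR adjusted p = 0.241). ATP5J2, subunit f of the membrane sector, averaged 96.8 ± 12.2, 116 ± 18.1, 76.5 ± 9.15 and 97.6 ± 14.6 CPM in that order (blue_light minus GL 0.60 ± 0.18, adjusted p = 0.254). ATP5F1, subunit b of the peripheral stalk that coupling factor 6 joins, averaged 159 ± 6.1, 132 ± 10.7, 172 ± 14 and 167 ± 18.3 CPM (blue_light minus GL −0.38 ± 0.14, adjusted p = 0.276).

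The genes around this pair were not called either. Of the 2 rows on each side of LOC100344965, 3 were 0 in all libraries, and the ribosomal protein L32 copy LOC100345217 stood at 188 to 257 CPM in the group means (lowest edgeR adjusted p = 0.717). ATP5J overlaps GABPA, which encodes a subunit of an ETS-family transcription factor, by 190 bp on opposite strands. GABPA averaged 62.2 ± 6.09 CPM in the controls, 67.7 ± 13.2 with blue_light, 45.9 ± 10 with GL and 65.6 ± 23.9 with RL (lowest edgeR adjusted p = 0.342). The sources used here do not say whether counting used strand, so reads of the overlap cannot be told apart.

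The adenosylhomocysteinase copy LOC100344261 lies on chromosome X at 53025870 to 53027353, plus strand. Its span of 1484 bp is within 5% of its implied length of 1486 bp. On the scale described for LOC100344965, this row too has no room for an intron. AHCY lies on chromosome 4 at 5403079 to 5423362, plus strand, spanning 20284 bp for an implied length of 2188 bp. The product name of the copy carries a low-quality mark in the deposited table.

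LOC100344261 was high in the controls alone. It stood at 16.6, 28.2 and 17.2 FPKM in control, 4.09, 3.86 and 3.04 in blue_light, 4.66, 2.91 and 4.30 in GL, and 3.25, 4.53 and 6.25 in RL. The lowest control lay above the highest of the 9 light libraries, and the 3 light groups overlapped each other. Mean levels were 20.6 ± 6.51 FPKM in the controls, 3.66 ± 0.553 with blue_light, 3.96 ± 0.923 with GL and 4.68 ± 1.51 with RL (SD, n = 3 each). The log2 difference from control was −2.50 ± 0.33 (SE) in blue_light, −2.34 ± 0.33 in GL and −2.07 ± 0.32 in RL. These 3 differences share their control libraries. Without the libraries high in rod markers, control 2 among them, they were −2.26, −2.10 and −1.76, and with the set rich in rare transcripts as a covariate −2.07, −2.53 and −2.10.

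AHCY differed from its copy in pattern. It stood at 226, 235 and 217 FPKM in control, 199, 231 and 245 in blue_light, 325, 333 and 335 in GL, and 219, 344 and 305 in RL. All GL libraries lay above all controls; RL 1 lay among the controls and RL 2 and RL 3 above them. The log2 difference from control was −0.01 ± 0.18 (SE) in blue_light, 0.60 ± 0.19 in GL and 0.43 ± 0.18 in RL. The group means were 226 ± 9.41, 225 ± 23.8, 331 ± 5.4 and 289 ± 64.0 FPKM in control, blue_light, GL and RL (SD, n = 3 each). Control and blue_light thus did not differ beyond their spread, nor did RL and GL. Epithelial and keratocyte marker sums were also higher in GL than in control, without overlap. The part of cell composition in the level of AHCY was not tested.

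Side by side in CPM, the copy differed from control by −25.8 ± 6.06 (SE) in blue_light, −25.1 ± 6.1 in GL and −23.9 ± 6.22 in RL. AHCY differed by −3.12 ± 39.8, 260 ± 21.3 and 174 ± 97.9 CPM in the same order. The deficit of the copy equalled 4.73% to 5.11% of the mean control level of AHCY, close to the SD of AHCY among controls (5.59%). A gain of AHCY as large as the loss of its copy would thus not be detectable in blue_light at this spread.

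The share of LOC100344261 in copy plus parent FPKM was 8.29 ± 2.09% in the controls, 1.63 ± 0.397% with blue_light, 1.18 ± 0.284% with GL and 1.59 ± 0.372% with RL (SD, n = 3 each). Among the 9 light libraries the shares did not differ detectably (exact permutation p = 0.346, adjusted p = 0.52). Between light groups edgeR gave log2 −0.17 for blue_light minus GL (interval −0.78 to 0.45, adjusted p = 0.848), −0.43 for blue_light minus RL (−1.04 to 0.18, 0.961) and −0.26 for GL minus RL (−0.87 to 0.35, 0.831). These intervals leave room for differences of about 1 on the log2 scale or somewhat more. AHCY gave −0.61 for blue_light minus GL (interval −0.97 to −0.25, edgeR adjusted p = 0.254), −0.44 for blue_light minus RL (adjusted p = 0.93) and 0.17 for GL minus RL (0.806).

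Lens transcripts were also higher in controls than in most light libraries. The 7 lens markers summed to 3710 to 5850 CPM in control, 424 to 2430 in GL and 300 to 2230 in RL. In blue_light the sums were 1250, 1720 and 10500 CPM from lowest to highest. The highest, in blue_light 1, exceeded every control, and LOC100344261 stood at 4.09 FPKM in that library. LENEP, a lens epithelial gene, was among the 3 rows most alike to LOC100344261 over the 12 libraries (Pearson r = 0.884 of log2 CPM). It averaged 10.5 ± 3.5 CPM in the controls, 3.59 ± 1.27 with blue_light, 2.84 ± 1.07 with GL and 3.74 ± 1.45 with RL. The part of lens tissue in the level of the copy was not tested.

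Of 7 rows with an adenosylhomocysteinase product, 4 were 0 throughout. The third row with counts, LOC100354938, held 0.762 to 1.91 CPM per library and was not called (lowest edgeR adjusted p = 0.847). Among the neighbours of LOC100344261, ESX1 and LOC103351921 were 0 in all libraries. FAM199X averaged 3.93 ± 1.44 CPM in the controls, 7.91 ± 3.93 with blue_light, 2.84 ± 0.477 with GL and 8.01 ± 3.26 with RL (lowest edgeR adjusted p = 0.254). IL1RAPL2 stood at 1.66 to 3.08 CPM in the group means (lowest 0.608). Beside AHCY, the row LOC103348190 lies 78 bp away on the other strand and held 1.22 ± 0.168 CPM in GL against 0.387 ± 0.193 in control (lowest edgeR adjusted p = 0.538).

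The wider methionine and methylation cycle gave no calls. Of 25 listed genes in the table, 22 were tested and edgeR called 0 in each of the 6 comparisons, as did DESeq2 and limma. At an unadjusted edgeR p below 0.05 there were 1, 4, 1, 3, 1 and 0 of the 22, in the order and beside the shares of all rows given for ATP synthase. Medians were 0.01, 0.07 and 0.01 (log2) beside 0.01, −0.02 and 0.00 over all tested genes. MAT2A, which makes S-adenosylmethionine, averaged 410 ± 14.7 CPM in the controls, 459 ± 81.7 with blue_light, 287 ± 56.7 with GL and 384 ± 118 with RL (blue_light minus GL log2 0.68 ± 0.23 SE, edgeR adjusted p = 0.26). CBS, which takes homocysteine out of the cycle, averaged 54.5 ± 9.02, 56.7 ± 3.92, 79.3 ± 10.6 and 62.9 ± 14.9 CPM (GL minus control 0.54 ± 0.20, adjusted p = 0.573). PEMT, a phospholipid methyltransferase that uses S-adenosylmethionine, averaged 6.47 ± 1.9, 3.68 ± 0.0738, 3.62 ± 1.04 and 5.45 ± 1.83 CPM (GL minus control −0.84 ± 0.36, adjusted p = 0.61).

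The KMT2A copy LOC100339782 lies on an unplaced scaffold at 75393 to 85790, plus strand, and is annotated as partial. It spans 10398 bp for an implied length of 3902 bp, so unlike the other copies it has room for introns. KMT2A lies on another unplaced scaffold at 503350 to 593746, plus strand, spanning 90397 bp for an implied length of 16527 bp. In a newer RefSeq gene table of another rabbit assembly, used here for order only, both genes stand on 1 chromosome sequence with 59 gene rows between them, 46 of them protein coding.

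LOC100339782 was listed at 0 in every control and was present in every light library. Its level was 2.64, 2.66 and 1.85 FPKM in blue_light, 1.54, 2.41 and 1.64 in GL, and 2.42, 1.96 and 1.04 in RL. The light groups overlapped, and no library lay between them and 0. In CPM the light means were 9.44 ± 1.76, 7.69 ± 1.98 and 7.50 ± 2.82 (SD, n = 3 each). A floor of 3 fragments per library, 0.244 CPM in the control with the highest floor, makes these at least 38.8-fold, 31.6-fold and 30.8-fold higher than control. The light library nearest the floor, RL 3, stood 17.8-fold above it. These bounds hold for the listed counts only, which are estimated. How reads that match both this copy and KMT2A were assigned is not given.

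KMT2A overlapped among all 4 groups. It stood at 9.34, 9.18 and 11.2 FPKM in control, 11.4, 9.81 and 9.58 in blue_light, 8.55, 9.68 and 9.29 in GL, and 9.63, 7.61 and 7.72 in RL. The log2 difference from control was 0.04 ± 0.15 (SE) in blue_light, −0.06 ± 0.15 in GL and −0.19 ± 0.15 in RL. In CPM, KMT2A differed from control by 5.24 ± 12.7, −6.73 ± 12.5 and −20.4 ± 13.9, beside 9.44 ± 1.02, 7.69 ± 1.14 and 7.50 ± 1.63 for the copy. The level of the copy in light was 4.49% to 5.66% of the control level of KMT2A, below the SD of KMT2A among controls (10.9%). A loss of that size from KMT2A would not have been detectable.

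LOC100339782 took 18.8 ± 2.56%, 16.8 ± 2.76% and 17.5 ± 4.87% of copy plus parent FPKM in blue_light, GL and RL (SD, n = 3 each). These shares did not differ detectably (exact permutation p = 0.782, adjusted p = 0.782). Between light groups edgeR gave log2 0.30 for blue_light minus GL (interval −0.43 to 1.02, adjusted p = 0.751), 0.33 for blue_light minus RL (−0.39 to 1.06, 0.993) and 0.04 for GL minus RL (−0.69 to 0.76, 0.994). Without the libraries high in rod markers these were 0.16, 0.27 and 0.11. For KMT2A the corresponding values were 0.10 (adjusted p = 0.786), 0.23 (0.949) and 0.13 (0.822).

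The scaffold of LOC100339782 lists 48 rows, and 38 were tested. LOC100339782 was the only tested row there at 0 in every control. In the whole table, 2 rows were at 0 in every control and above the floor in the 9 light libraries. EdgeR called 0 of the other 37 tested rows in any comparison, and limma called 0. Over all tested rows edgeR called 0.011% to 0.0715% per comparison, so nothing is read from the absence of calls among 37. At an unadjusted edgeR p below 0.05 there were 0, 3, 2, 6, 1 and 3 of the 37, in the order given for ATP synthase. DESeq2 called LOC108175841 in GL minus control (lower), in blue_light minus GL (higher) and in GL minus RL, and ABCG4 in GL minus RL. The scaffolds of copy and parent share 8 product names, which do not all stand in the same order. KMT2A, transmembrane protein 25, intraflagellar transport protein 46 and coatomer delta follow each other on both, whereas UBE4A, CD3G and CD3D stand in opposite orders. The rows beyond the 2 nearest on each side were chosen after their values were seen.

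The scaffold partners were present in controls and light alike. LOC100340032, the transmembrane protein 25 copy 1653 bp downstream, averaged 6.80 ± 1.4 CPM in the controls, 4.71 ± 2.08 with blue_light, 5.30 ± 2.77 with GL and 5.64 ± 2.2 with RL (lowest edgeR adjusted p = 0.87). IFT46, a gene of transport in cilia, averaged 24.7 ± 10.9, 19.9 ± 1.7, 21.6 ± 9.55 and 19.7 ± 7.43 CPM (lowest 0.918). ARCN1, the coatomer delta subunit of vesicle coats, averaged 194 ± 35.6, 209 ± 51.1, 191 ± 7.29 and 224 ± 39.2 CPM (lowest 0.757). These 3 and LOC103345626, the UBE4A copy (1.38 to 7.21 CPM), were above 0 in all 12 libraries. TTC36, 152 bp from the copy, and both CD3E rows upstream were at or near 0 in every group. Which of these rows hold reads shared with the other scaffold was not tested.

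**Figure D4:**
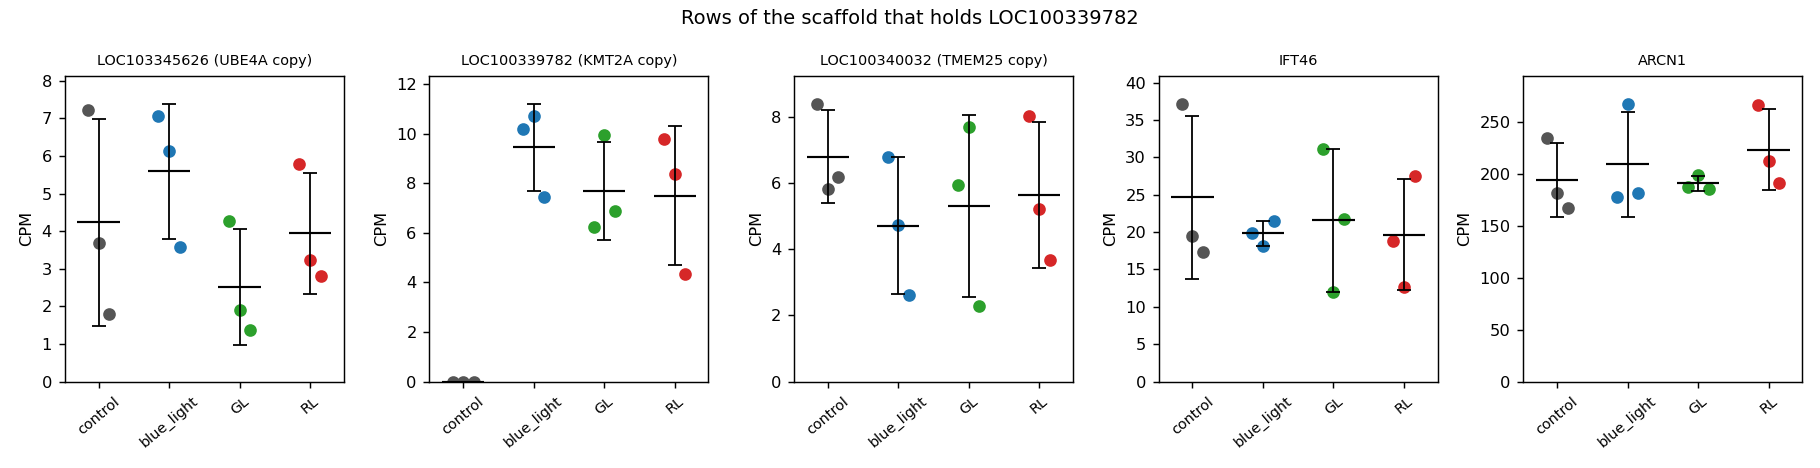
CPM of 5 rows on the scaffold that holds LOC100339782 (vertical axes from 0), by group. Points are libraries, lines means and bars SDs (n = 3); LOC100339782 is 0 in the 3 controls and 4.35 to 10.7 in the light libraries, while the other 4 rows are above 0 in all 12 libraries.

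Genes of KMT2 complexes and known KMT2A targets gave no calls. Of 20 tested complex members (KMT2A among them) edgeR, DESeq2 and limma called 0 in each of the 6 comparisons. At an unadjusted edgeR p below 0.05 there were 0, 1, 0, 5, 1 and 0 of the 20, in the order given for ATP synthase; the 5 were in blue_light minus GL, where 14.9% of all rows lay below that p. Their medians were 0.01, −0.02 and −0.06 (log2), beside 0.01, −0.02 and 0.00 over all tested genes. PSIP1, which tethers KMT2A complexes to chromatin, averaged 120 ± 14 CPM in the controls, 143 ± 11.6 with blue_light, 90.5 ± 10.5 with GL and 111 ± 29.2 with RL (blue_light minus GL log2 0.66 ± 0.20 SE, edgeR adjusted p = 0.254). Of 8 listed targets in the table, 4 were tested and 0 were called by edgeR, DESeq2 or limma, with 1 at an unadjusted edgeR p below 0.05, in GL minus control. It was CDKN2C, a cell cycle inhibitor, averaging 4.90 ± 3.17 CPM in the controls and 11.8 ± 2.06 with GL (log2 1.27 ± 0.39, adjusted p = 0.488). MEIS1, a homeobox gene, averaged 61.8 ± 8.49 CPM in the controls, 62.7 ± 10.2 with blue_light, 53.6 ± 3.71 with GL and 59.3 ± 15.2 with RL.

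Among the 6 genes, edgeR called 3 in blue_light minus control, 2 in GL minus control (LOC100344261 and LOC100339782) and 1 in RL minus control (LOC100339782), where 0.0165%, 0.055% and 0.011% of all tested rows were called. These calls chose the copies and nothing is read from them. Groups did not overlap for 4 of the 6 genes in blue_light minus control, 4 in GL minus control and 2 in RL minus control, beside 9.0%, 18.5% and 8.32% of all tested rows. A class of 5264 unnamed rows that have a product name in common with a named gene had 2171 tested members, and 2255 members at 0 in all libraries. Calls among those 2171 numbered 3, 2 and 1 for blue_light, GL and RL minus control, the copies described here making up all of them. The other 16000 rows had 0, 8 and 1. Since the copies were chosen by such calls, nothing is read from the difference between the classes. In blue_light minus GL, blue_light minus RL and GL minus RL, calls numbered 1, 1 and 0 in the class and 8, 1 and 13 outside it.

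The rows most alike to each gene over the 12 libraries were ranked by Pearson r of log2 CPM, as a description, since libraries of a group share their condition. For LOC100344965 these were LOC108176523, LOC100353095 and LOC108176572 (r = 0.989, 0.988 and 0.988), which held 0.36 to 0.42 CPM in blue_light and 0 elsewhere, near the floor. Its least alike row was PADI3, a protein deiminase of epidermal cornification (r = −0.917), averaging 132 ± 33.2 CPM in the controls, 19.1 ± 23.9 with blue_light, 157 ± 32.4 with GL and 144 ± 28.1 with RL. For LOC100339782 the most alike rows were LOC108176618 (0.956), EPB41L5 (0.90) and LOC100340294 (0.894). EPB41L5, a gene of epithelial junctions and adhesion, averaged 42.4 ± 1.62 CPM in the controls, 55.5 ± 4.15 with blue_light, 53.2 ± 3.19 with GL and 51.4 ± 1.62 with RL. The least alike row to LOC100344261 was LOC100339782 (r = −0.96), as both separate control from light.

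The parents had other companions. ATP5J was most like HYPK (0.888), LOC103347550 (0.843) and ANXA1 (0.836), and least like SDHD, a subunit of respiratory complex II (−0.918). SDHD averaged 47.1 ± 2.82 CPM in the controls, 54.3 ± 3.21 with blue_light, 53.2 ± 1.77 with GL and 46.7 ± 3.76 with RL. AHCY was most like HEXIM1 (0.953), SCAMP1 (0.952) and PCBP1 (0.951), the last an RNA-binding protein at 222 ± 12.4, 229 ± 38.1, 333 ± 18.9 and 332 ± 130 CPM in the same order. KMT2A was most like ATP5S (0.925), SRD5A2 (0.89) and MAP3K9 (0.878). No parent was among the 3 rows most alike to its copy. With only 3 rows kept for each gene, nothing is read from that absence.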

How the data were processed

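The authors deposited 1 table that gives, per the file headers, estimated counts and FPKM for every gene in each library. The counts were whole numbers, used as deposited; low counts stood at multiples of about 3.73, taken as 1 fragment, so fragments and floors are approximate and cover counting error only. A count of 0 was listed with an FPKM of 1e-04, read as 0. The submitters' processing notes name GRCm38 and mm10, a mouse build, whereas the table lists rabbit genes on rabbit RefSeq sequences; chromosome names follow OryCun2.0 numbering. For the aligner, the counter and their treatment of reads with several matches: not given in the sources used here. A RefSeq gene table of another rabbit assembly (mOryCun1.1) matched all 6 genes by identifier, with ATP5J now named ATP5PF, and served for names and gene order only.

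EdgeR 4.0.16 in R 4.3.3 fitted all 12 libraries with 4 group means (TMM scaling, filterByExpr, glmQLFit and glmQLFTest). P-values were adjusted by Benjamini-Hochberg over all 18171 rows of a comparison, with a threshold of 0.05. CPM used TMM-adjusted library sizes. The biological coefficient of variation was 0.578. Copies and parents were set against each other in FPKM, which is per length. Shares were tested by exact permutation. DESeq2 1.42.0, limma 3.58.1 on log2(FPKM + 1) and log2(FPKM + 0.1), RLE scaling, no filter, division by the step, a block, fits of 2 groups and omission of each library were alternatives; 2 more were chosen after seeing the data. Only the edgeR fit was tested on simulated counts, with known folds placed in GL against control. The share test, the implied lengths, the steps in low counts and reads shared by copy and parent were not simulated.

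Named genes were the 6, their overlapping and 2 nearest rows on each side, family copies with a mean of 1 FPKM or more in a group, the 3 most and the 1 least alike row, and the 4 members of each list with the smallest p; those with little to add are left out. The members and lists were chosen with earlier results of these data known.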

Additional observations from a re-analysis of the deposited data

Results flagged for a closer look

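LOC100344965 was flagged because its difference from control varied between light groups. The edgeR tests are those of blue_light minus GL and blue_light minus RL given above. Its effect in blue_light exceeded that in GL by log2 2.48 (edgeR adjusted p = 0.00107) and that in RL by log2 2.39 (edgeR adjusted p = 0.00158). The blue_light libraries also chose this copy, so these tests are not independent of the choice and nothing is supported with them. Without the 3 libraries high in rod markers the edgeR adjusted p was 0.169 for GL and 0.0768 for RL. With the rare-transcript set as a covariate it was 0.117 for GL and 0.0285 for RL. The part of read assignment between this copy, ATP5J and the other coupling factor 6 rows was not tested.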

How the results depend on the processing

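The number of rows called in all 18171 moved more than the members did. With DESeq2 it was 29, 147, 81, 383, 77 and 197 for blue_light, GL and RL minus control, blue_light minus GL, blue_light minus RL and GL minus RL, against 3, 10, 2, 9, 2 and 13 by edgeR. Fits of only the groups compared gave 7, 28 and 5 for the comparisons with control and 3 for GL minus RL. Limma gave 5 (pseudocount 0.1 FPKM) for blue_light minus control, 1 (pseudocount 1) for RL minus control, 15 (0.1) for blue_light minus GL, 6 (1) and 9 (0.1) for blue_light minus RL, and 20 (1) for GL minus RL. Blue_light minus RL gave 5 without a filter and 4 with step-divided counts. Without the 3 libraries high in rod markers the counts were 1, 1, 2, 0, 1 and 2 in the order above, and blue_light minus GL gave 0 with the library set as a covariate. Leaving out each library gave ranges of 2 to 10, 3 to 21, 2 to 9, 3 to 22, 2 to 5 and 5 to 25. The highest counts came without control 1 (10, and 9 in RL), without control 1 or GL 2 (21 each), without GL 2 (22), without RL 2 (5 and 25) and without GL 2 in GL minus RL (24). The cause was not tested.

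Of 537 alternative values for the 6 genes, 521 kept direction and side of the threshold or moved by less than the replicate SD. The calls of LOC100344965 lost were those given in the report. Reversed values, none of them called, came with the library set as a covariate for ATP5J (0.15) in blue_light minus GL, LOC100344261 (0.46 in blue_light minus GL, 0.03 in blue_light minus RL) and LOC100339782 (−0.31 and −0.04). In GL minus RL, LOC100344261 gave 0.00 without RL 3 (range over omissions −0.48 to 0.00), AHCY −0.01 without RL 1 (−0.01 to 0.35), and LOC100339782 −0.19 without GL 2 and −0.24 without RL 3 (−0.24 to 0.27). The adjusted p of the LOC100344965 share was 0.0107 to 0.0536 over omissions of a library, 0.0643 as a share of the family and 0.0857 without the light libraries high in rod markers, all by exact permutation. The other shares kept 0.22 to 0.675 (LOC100344261) and 0.343 to 0.929 (LOC100339782) over such omissions.

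Same-numbered libraries deviated together with r above 0.1 in 3 of 18 pairs (−0.0738 to 0.235). The labels do not say whether a replicate number marks a shared animal or batch, and these correlations cannot show it. A replicate block gave 2, 11, 3, 9, 2 and 9 calls in the order above, and log2 2.48 (edgeR adjusted p = 0.00591) and 2.39 (0.00786) for LOC100344965 in blue_light minus GL and minus RL.

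Each group has 3 libraries. Depth was 10.97 to 17.36 M fragments per library, and a floor of 3 fragments stood at 0.1732 to 0.2584 CPM.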
